A study of Saccharomyces cerevisiae with 8 samples.

Results

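IMP dehydrogenase converts IMP to XMP, the first step that commits the purine pathway to guanine nucleotides, and in Saccharomyces cerevisiae it is encoded by the paralogs IMD2, IMD3 and IMD4. The mRNA of these genes and of 2 further enzymes of GMP formation, GUA1 and HPT1, was followed in 4 evolved yeast strains. GUA1 encodes GMP synthase, which aminates XMP with the amide nitrogen of glutamine, and HPT1 encodes the phosphoribosyltransferase that salvages hypoxanthine and guanine to IMP and GMP. The members were the gene rows with these 5 names, among 6600 protein-coding gene rows. The set was chosen by a measured value, the low count of IMD2 in strain DGY1726 against the mean of the other strains, so every value of IMD2 that involves DGY1726 is given as a description, with no test.

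The strains DGY1726 (named Trans by the study), DGY1735 (ODIRA_A), DGY1741 (ComQuad) and DGY1743 (ODIRA_B) each descend from a single clone isolated from populations that had adapted to limiting glutamine, and each carries its own copy number variant of the GAP1 locus on chromosome XI. All share an S288C-type background with a fluorescent reporter and a KanMX cassette near GAP1, which was used to find the variants. DGY1726 and DGY1735 were sampled after fewer generations than DGY1741 and DGY1743. Every strain was grown in 2 chemostat cultures with 800 µM glutamine and 2% glucose at 30 °C, cells were exposed briefly to cycloheximide at harvest, and RNA was sequenced. The ancestor was not analysed here, so each strain was compared with the other evolved strains. The study also described, for DGY1726, a translocation that replaced the telomere of chromosome VIII, with its joining site between FLO5 and YHR212C.

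Each of the 8 libraries held between 9125509 and 13205947 reads in protein-coding gene rows. Mitochondrial genes took 13.2% and 19.2% of them in the DGY1743 libraries and between 0.0534% and 0.0957% in the other 6. Levels are CPM, counts scaled to a fixed library total with size factors from the trimmed mean of M-values (TMM). Differences were tested with edgeR's quasi-likelihood test and called at a Benjamini-Hochberg adjusted p under 0.05 over the 5527 genes that averaged 100 counts or more per library. All 5 members passed this minimum. With 2 cultures per strain the p-values measure a spread between cultures that edgeR estimates from each gene together with the other genes. A gene whose own cultures lie far apart can thus receive a smaller SE than those cultures alone would give. In bulk RNA fewer expressing cells and less RNA per cell cannot be told apart.

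IMD2 is the family member known for its response to the guanine nucleotide supply. When GTP is plentiful, transcription starts upstream at guanines and ends early through the Nrd1, Nab3 and Sen1 proteins. When GTP falls, for example under the IMP dehydrogenase inhibitor mycophenolic acid, it starts further downstream and yields the full mRNA. IMD3 and IMD4 are not induced in this way. IMD1, a further copy at the right end of chromosome I, is disrupted and annotated as YAR073W (IMD1) and YAR075W.

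Because the paralogs are alike, their sequences set what a count can say. In the R64 assembly IMD2 (YHR216W) lies on the plus strand of chromosome VIII from 554396 to 555967. IMD3 (YLR432W) lies on chromosome XII from 1002557 to 1004128 and IMD4 (YML056C) on the minus strand of chromosome XIII from 162194 to 164176, with an intron from 163309 to 163716. GUA1 (YMR217W) occupies chromosome XIII from 701790 to 703367, and HPT1 (YDR399W) chromosome IV from 1270068 to 1270733, both on the plus strand. None of the 5 lies on chromosome XI beside GAP1. The coding bases of IMD2 matched those of IMD3 at 88.9%, of IMD4 at 79.2% and of the IMD1 locus at 96.6% of aligned positions, and IMD3 matched IMD4 at 82.5%. The 60-base window of IMD2 in which IMD3 and IMD4 differ most from it, chromosome VIII 554522 to 554581, is printed from the R64 reference for the 4 loci, 5′ to 3′ on the coding strand, with bases that differ from IMD2 in capitals.
IMD2: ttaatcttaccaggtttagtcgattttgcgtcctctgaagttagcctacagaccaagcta
IMD1 locus: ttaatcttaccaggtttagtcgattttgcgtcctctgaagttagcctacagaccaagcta
IMD3: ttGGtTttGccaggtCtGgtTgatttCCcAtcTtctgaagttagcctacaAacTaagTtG
IMD4: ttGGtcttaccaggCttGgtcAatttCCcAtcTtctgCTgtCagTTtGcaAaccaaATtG

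IMD3 differed from IMD2 at 15 of these 60 bases and IMD4 at 19, while the IMD1 locus did not differ at all. The window in which the family is most alike, chromosome VIII 555615 to 555674, shows the other extreme, with the same use of capitals.
IMD2: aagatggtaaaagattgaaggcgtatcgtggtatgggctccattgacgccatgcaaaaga
IMD1 locus: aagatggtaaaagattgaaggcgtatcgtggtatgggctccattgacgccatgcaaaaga
IMD3: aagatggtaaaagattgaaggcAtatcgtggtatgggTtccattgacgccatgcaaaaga
IMD4: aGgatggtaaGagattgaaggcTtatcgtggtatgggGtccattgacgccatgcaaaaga

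There IMD3 differed at 2 bases and IMD4 at 4. The reads were 50 bases long, so the share of 50-base stretches of each gene that recur elsewhere in the genome was counted. It was 33.7% for IMD2, 16.6% for IMD3, 5.53% for IMD4 and 0% for GUA1 and HPT1. IMD2 shared 22.7% of its stretches with YAR073W, 8.54% with YAR075W and 8.01% with IMD3, and no stretch with IMD4. IMD3 shared 7.03% of its stretches with IMD4. How the study assigned reads with several matches is not given in the sources used here. The other 66.3% of IMD2 stretches occur once in the genome. Counts are uncertain in the stretches that recur, 33.7% for IMD2, 16.6% for IMD3, 33.7% for YAR073W and 30.6% for YAR075W.

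IMD2 held 619 and 393 reads in the DGY1726 libraries, 1390 and 1200 in DGY1735, 3854 and 4839 in DGY1741, and 2656 and 2519 in DGY1743. On the CPM scale these were 49.1 and 35.3, 149 and 90.3, 318 and 352, and 253 and 256. The cultures of the strains did not overlap, and the order from low to high was DGY1726, DGY1735, DGY1743, DGY1741. How many of all genes separate the strains in this way was not counted. As a description, IMD2 in DGY1726 was at a log2 ratio of −2.36 (SE 0.19) to the mean of the other 3 strains, a level 5.12-fold lower. The log2 ratio of DGY1726 to DGY1735 was −1.50 (SE 0.24), to DGY1743 −2.58 (SE 0.15) and to DGY1741 −2.99 (SE 0.15).

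**Figure D1:**
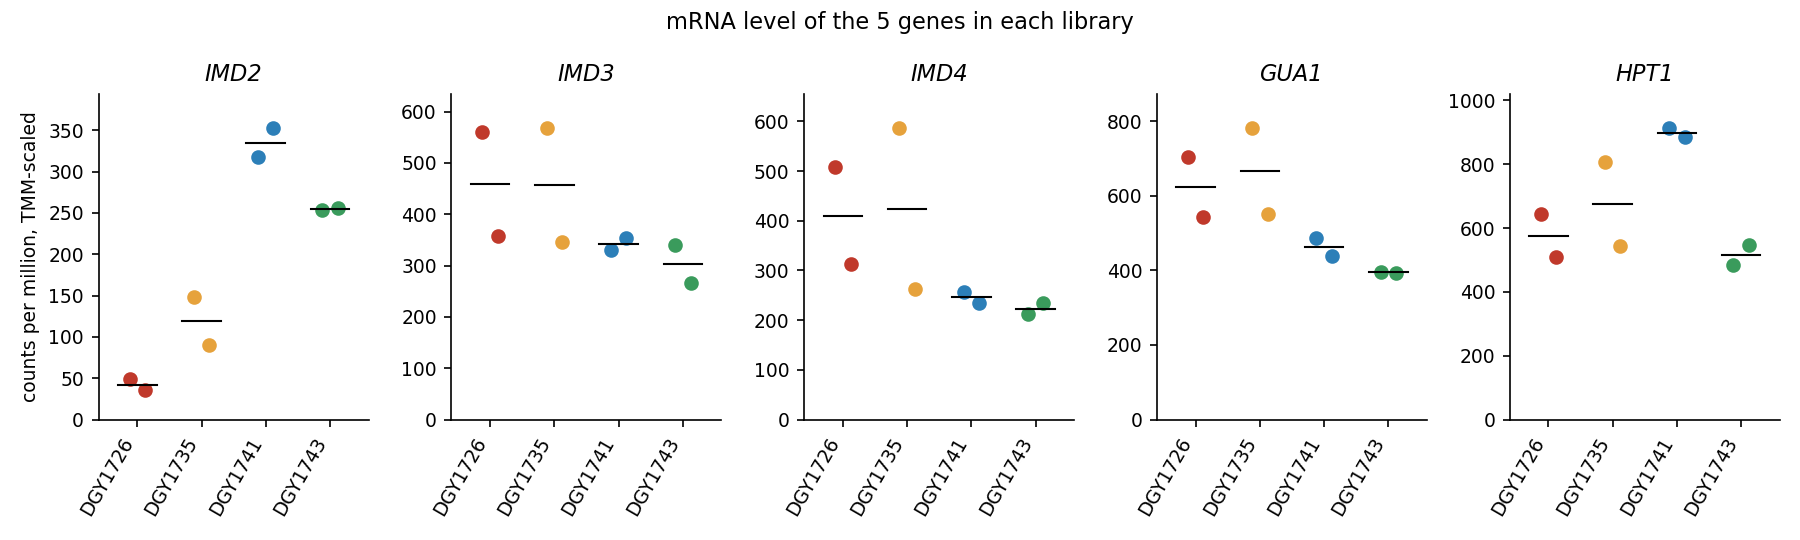
TMM-scaled CPM (linear axis from 0) of the 5 genes, with 1 point per culture and a line at the mean of the 2 cultures of each strain. IMD2 runs from 35.3 in a DGY1726 culture to 352 in a DGY1741 culture without overlap between strains, whereas the cultures of DGY1726 and DGY1735 lie far apart for IMD3, IMD4 and GUA1.

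The stated choice of IMD2 used the mean of DGY1735, DGY1741 and DGY1743 and not the differences among these 3 strains. Earlier results of these data were known when the members were chosen, so the tests below may not be free of that choice. Among these 3 strains IMD2 differed (adjusted p = 0.000311, edgeR quasi-likelihood F-test), as did 42% of all genes tested. It was 2.83-fold lower in DGY1735 than in DGY1741 (log2 ratio −1.50, SE 0.19, adjusted p = 3.26e-05), where 38.5% of all genes were called. It was 2.12-fold lower in DGY1735 than in DGY1743 (log2 ratio −1.09, SE 0.21, adjusted p = 0.0145), where 16.1% were called. The call against DGY1743 was lost without its replicate 1 (adjusted p = 0.0875) or replicate 2 (adjusted p = 0.111). DGY1741 exceeded DGY1743 by 1.31-fold (log2 ratio 0.39, SE 0.14, adjusted p = 0.0235, 24.6% of genes called), and this call was lost when the spread was estimated over all 8 libraries (adjusted p = 0.176), with the replicate number as a block (adjusted p = 0.0511), and without any 1 of the 4 libraries compared (adjusted p between 0.0560 and 0.217).

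The paralog IMD3 had its highest mean levels in the strains where IMD2 was low. It was at 560 and 359 CPM in DGY1726, 567 and 347 in DGY1735, 331 and 354 in DGY1741, and 339.8 and 266 in DGY1743. Its strains overlapped, and the difference among them missed the threshold (adjusted p = 0.0995). Of the 4 members tested among all strains, 3 were called, IMD4, GUA1 and HPT1, against 47.3% of all genes. IMD3 became a call without DGY1735 replicate 2 (adjusted p = 0.00309), without DGY1735 replicate 1 (0.0343) and without DGY1726 replicate 2 (0.0183). No strain passed the test of IMD3 against the mean of the other 3, with log2 ratios between −0.46 (SE 0.20, DGY1743) and 0.35 (SE 0.19, DGY1726). DGY1743 passed with the replicate number as a block (adjusted p = 0.0408) and without DGY1726 replicate 2 (0.0355) or DGY1735 replicate 2 (0.00941), DGY1726 without DGY1735 replicate 1 (0.0189), and DGY1735 without its replicate 2 (0.0136). In pairs, IMD3 was higher in DGY1726 than in DGY1741 (log2 ratio 0.42, SE 0.15, adjusted p = 0.0327, 43.2% of genes called) and than in DGY1743 (log2 ratio 0.61, SE 0.17, adjusted p = 0.0113, 27.2% of genes called). Both calls were lost without DGY1726 replicate 1, where the log2 ratios were 0.071 and 0.25. The first was also lost without DGY1741 replicate 1 (log2 ratio 0.37) and the second without DGY1743 replicate 2 (0.43). Neither pair passed with the spread estimated over all 8 libraries (adjusted p = 0.172 and 0.0747).

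IMD4 was at 507 and 313 CPM in DGY1726, 586 and 263 in DGY1735, 257 and 235 in DGY1741, and 213 and 234 in DGY1743. All 4 libraries of DGY1726 and DGY1735 were above all 4 of DGY1741 and DGY1743, a pattern found in 14.2% of all genes tested. IMD4 differed among the strains (adjusted p = 0.0357), but not by DESeq2 (adjusted p = 0.142) and not without any 1 of the DGY1741 or DGY1743 libraries (adjusted p between 0.0819 and 0.109). It was 1.66-fold higher in DGY1726 than in DGY1741 (log2 ratio 0.74, SE 0.16, adjusted p = 0.00107) and 1.84-fold higher than in DGY1743 (log2 ratio 0.88, SE 0.17, adjusted p = 0.000438). It was also higher in DGY1735 than in DGY1741 (log2 ratio 0.77, SE 0.26, adjusted p = 0.0320). The last value fell to 0.095 without DGY1735 replicate 1 (adjusted p = 0.696), and the first to 0.35 without DGY1726 replicate 1 (adjusted p = 0.0588). Neither comparison with DGY1741 passed by DESeq2 (adjusted p = 0.0785 for DGY1726 and 0.274 for DGY1735) or with the spread estimated over all 8 libraries (0.0681 and 0.0577). IMD4 in DGY1735 against DGY1743 gave a log2 ratio of 0.93 (SE 0.32, adjusted p = 0.0852). This difference passed with the spread over all 8 libraries (adjusted p = 0.0416) and with the replicate number as a block (0.0316), and the log2 ratio ran from 0.24 to 1.41 as single libraries were left out.

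Within a library, the balance between paralogs does not depend on library size. The log2 ratio of IMD4 to IMD3 counts was −0.14 and −0.20 in DGY1726, 0.046 and −0.40 in DGY1735, −0.36 and −0.59 in DGY1741, and −0.67 and −0.18 in DGY1743. The ranges overlapped, and an exact permutation test over all 2520 arrangements of the libraries of a difference among strains did not pass (p = 0.562, smallest possible p = 0.00952). The log2 ratio of IMD2 to IMD3 was −3.51 and −3.35 in DGY1726, −1.93 and −1.94 in DGY1735, −0.058 and −0.0083 in DGY1741, and −0.43 and −0.052 in DGY1743. That of IMD2 to IMD4 was −3.37 and −3.15, −1.98 and −1.54, 0.31 and 0.58, and 0.25 and 0.13 in the same order. The DGY1726 and DGY1735 libraries were below the DGY1741 and DGY1743 libraries on both ratios, and DGY1726 was below DGY1735.

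Of all coding-sequence reads of IMD2, IMD3 and IMD4, IMD2 took 4.50% and 5.20% in DGY1726, 11.7% and 13.3% in DGY1735, 35.6% and 38.0% in DGY1741, and 31.9% and 34.8% in DGY1743. The summed level of the 3 genes overlapped between strains, with 884 ± 292 CPM in DGY1726, 973 ± 414 in DGY1735, 910 ± 24.1 in DGY1741 and 765 ± 40.6 in DGY1743 (mean ± SD, n = 2). The share of IMD2 was 4.85% ± 0.49 in DGY1726 and 36.8% ± 1.69 in DGY1741. The summed level was 1091 and 678 CPM in the DGY1726 cultures, which lay far apart, and 893 and 927 in those of DGY1741.

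**Figure D2:**
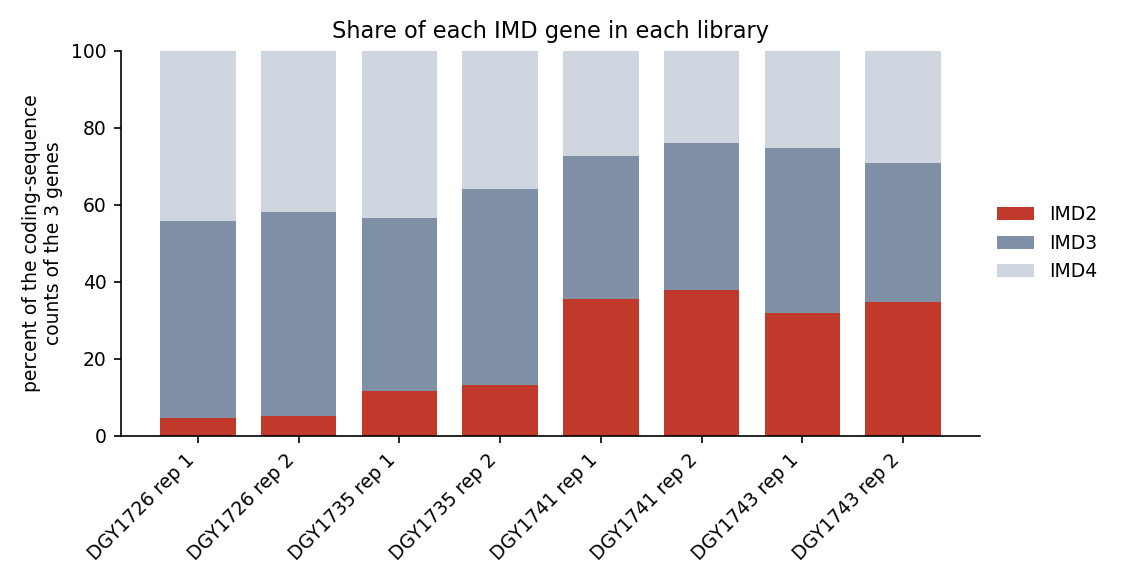
Stacked bars of the percent of coding-sequence counts of IMD2, IMD3 and IMD4 taken by each gene, 1 bar per library, axis from 0 to 100%. The IMD2 share lies between 4.50% and 13.3% in the DGY1726 and DGY1735 libraries and between 31.9% and 38.0% in the DGY1741 and DGY1743 libraries.

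Per kilobase of coding sequence, HPT1 was the most abundant of the 5 mRNAs in every library, between 728 and 1370 CPM per kb, and GUA1 came next, between 249 and 495. In DGY1726 IMD3 followed at 292 ± 90.7 CPM per kb, then IMD4 at 243 ± 88.4, and IMD2 at 26.8 ± 6.23 (mean ± SD, n = 2). In DGY1741 IMD2 at 213 ± 15.4 and IMD3 at 218 ± 10.4 did not differ beyond their spread, and IMD4 lay below both at 148 ± 10.5. In DGY1743 IMD2 at 162 ± 1.50 CPM per kb stood between IMD3 at 193 ± 33.3 and IMD4 at 132 ± 5.99. IMD2 was the lowest member in DGY1726 and DGY1735 and above IMD4 in the other strains.

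GUA1, the next enzyme after IMP dehydrogenase, had levels of 704 and 543 CPM in DGY1726, 781 and 552 in DGY1735, 486 and 439.7 in DGY1741, and 396 and 393 in DGY1743. As for IMD4, the 4 libraries of DGY1726 and DGY1735 were all above the other 4. GUA1 differed among the strains (adjusted p = 0.00859). It was higher in DGY1735 than the mean of the others (log2 ratio 0.46, SE 0.13, adjusted p = 0.0290, 21.4% of genes called) and lower in DGY1743 (log2 ratio −0.55, SE 0.14, adjusted p = 0.0181, 21.4% called). The first call was lost without DGY1735 replicate 1 (adjusted p = 0.547) and without DGY1741 replicate 1 (0.0549) or replicate 2 (0.0754), the second without DGY1743 replicate 1 (0.0824) or replicate 2 (0.119). The values for DGY1726 (log2 ratio 0.33, SE 0.13, adjusted p = 0.0967, 23.3% called) and DGY1741 (−0.24, SE 0.14, adjusted p = 0.198, 36.8% called) did not pass. In pairs GUA1 was higher in DGY1726 than in DGY1741 (log2 ratio 0.43, SE 0.13, adjusted p = 0.0122) and DGY1743 (0.66, SE 0.15, 0.00170). It was also higher in DGY1735 than in DGY1741 (0.51, SE 0.16, 0.0250) and DGY1743 (0.76, SE 0.18, 0.0271). Of all genes, 43.2%, 27.2%, 38.5% and 16.1% were called in these pairs. Without 1 library these ratios fell as low as 0.23, 0.47, 0.26 and 0.49, and each of these pair calls was lost without some single library. The first pair, DGY1726 against DGY1741, did not pass with the spread over all 8 libraries (adjusted p = 0.0632).

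Between DGY1726 and DGY1735, 0 of the 4 tested members were called by edgeR (adjusted p between 0.617 and 0.995, 1.76% of genes called), with 0 at an unadjusted p under 0.05 and 0 by DESeq2.

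HPT1, the salvage enzyme, followed another order, with 644 and 508 CPM in DGY1726, 808 and 543 in DGY1735, 912 and 886 in DGY1741, and 485 and 547 in DGY1743. Only in DGY1741 did both cultures lie above all 6 other libraries, a pattern whose share among all genes was not counted. HPT1 differed among the strains (adjusted p = 0.0123), though not without DGY1741 replicate 1 (0.0883) or replicate 2 (0.0679). In DGY1741 it was 1.54-fold above the mean of the others (log2 ratio 0.62, SE 0.14, adjusted p = 0.00441), a call lost without DGY1741 replicate 1 (adjusted p = 0.0629). It was 1.74-fold higher in DGY1741 than in DGY1743 (log2 ratio 0.80, SE 0.15, adjusted p = 3.04e-06), and 1.56-fold lower in DGY1726 than in DGY1741 (log2 ratio −0.64, SE 0.13, adjusted p = 0.000365). Of all genes, 36.8% were called in DGY1741 against the mean of the others, and 24.6% and 43.2% in these pairs. DGY1743 against the mean of the others fell just short (log2 ratio −0.45, SE 0.15, adjusted p = 0.0513) and passed under 9 of 15 other settings.

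**Figure D3:**
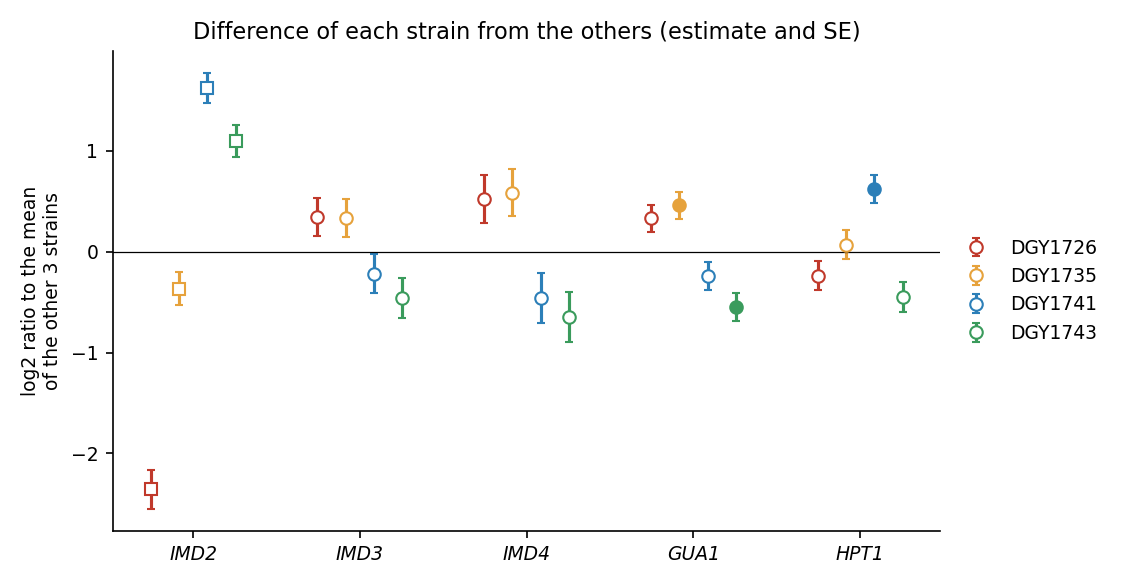
Log2 ratio of each strain to the mean of the other 3, with bars of 1 SE. Filled circles passed an adjusted p of 0.05, open circles did not, and the open squares of IMD2 were not tested. IMD2 spans −2.36 to 1.62, and the filled circles are GUA1 in DGY1735 (0.46) and DGY1743 (−0.55) and HPT1 in DGY1741 (0.62).

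The rows of the disrupted IMD1 locus ran parallel to IMD2, with which they share reads. YAR073W held 659 and 462 reads in DGY1726, 832 and 698 in DGY1735, 1411 and 1743 in DGY1741, and 941 and 955 in DGY1743. YAR075W held 162 and 118, 254 and 218, 498 and 568, and 294 and 351. Across the 8 libraries log2 CPM of IMD2 correlated with YAR073W at r = 0.97 and with YAR075W at r = 0.98. The log2 ratio of IMD2 to YAR073W counts was not constant, with −0.090 and −0.23 in DGY1726, 0.74 and 0.78 in DGY1735, 1.45 and 1.47 in DGY1741, and 1.50 and 1.40 in DGY1743. In DGY1726 both IMD1 rows were also low, at log2 ratios of −0.98 (SE 0.17) and −1.37 (SE 0.20) to the mean of the others, given as descriptions because part of their reads may come from IMD2.

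IMD2 lies beyond FLO5, towards the right end of chromosome VIII, and the other genes there were examined in DGY1726. Of 16 gene rows beyond FLO5, 11 had a mean under 100 counts, and IMD2 and 4 others passed. In DGY1726 2 of these 4 were lower than the mean of the other strains and none higher, against 11.2% of all genes called lower. Their median log2 ratio was −0.58, compared with 0.0028 for all genes. The 2 called lower were PHO12 and YHR218W, of which 87.2% and 100% of the 50-base stretches recur elsewhere in the genome. In those stretches their counts are not specific to chromosome VIII. FLO5 itself, a flocculation gene on the inner side of the joining site, gave a log2 ratio of 0.11 (SE 0.12, adjusted p = 0.537).

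PHO12, an acid phosphatase gene next to IMD2, held 523 and 296 reads in DGY1726, 1025 and 1486 in DGY1735, 985 and 1007 in DGY1741, and 1344 and 1383 in DGY1743. The DGY1726 libraries were below all others, and the level was 3.07-fold lower (log2 ratio −1.62, SE 0.15, adjusted p = 2.25e-05). PHO12 shares 87.2% of its 50-base stretches with PHO11 on chromosome I, a paralog looked up after the values were seen, which held 586 and 348 reads in DGY1726 and between 909 and 1460 elsewhere (log2 ratio −1.36, SE 0.14, adjusted p = 4.80e-05). In these stretches the reads of the acid phosphatase genes cannot be told apart. YHR218W, a helicase-like frame of a subtelomeric Y′ repeat, was 1.31-fold lower (log2 ratio −0.39, SE 0.10, adjusted p = 0.0138), a call lost without DGY1726 replicate 2 (adjusted p = 0.168). YHR217C (−0.78, SE 0.33, adjusted p = 0.109) and YHR219W (−0.15, SE 0.11, adjusted p = 0.369) did not pass.

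**Figure D4:**
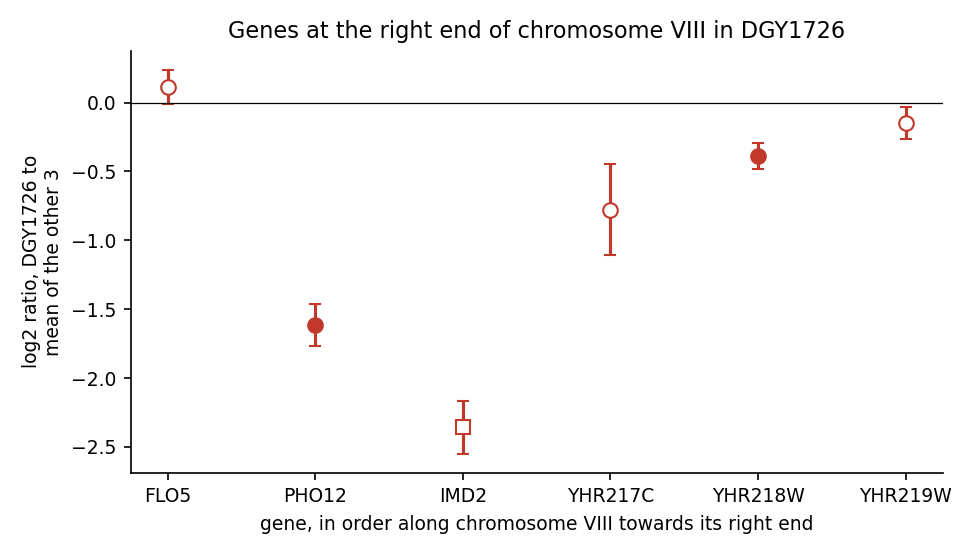
Log2 ratio of DGY1726 to the mean of the other 3 strains, with bars of 1 SE, for FLO5 and the genes beyond it that averaged 100 counts or more, in order towards the right end of chromosome VIII. Filled circles passed an adjusted p of 0.05 and the open square of IMD2 was not tested. PHO12 (−1.62) and IMD2 (−2.36) are lowest, and the values of the repeat genes YHR218W (−0.39) and YHR219W (−0.15) are nearer to 0.

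All stretches of YHR218W and YHR219W recur elsewhere in the genome (100%), so their counts hold no read that belongs to chromosome VIII alone. These rows still held between 543 and 2573 reads per library, so reads with several matches in the reference had been counted at least in part. The part of the chromosome VIII rearrangement in the level of IMD2 was not tested. The study determined gene copy number in each strain from DNA sequencing, and those values were not used here. The 393 and 619 IMD2 reads that remained in DGY1726 cannot be told apart from reads of the IMD1 locus in the stretches they share.

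Other purine genes were read from lists. Of 12 genes of purine interconversion and salvage, all tested, 6 differed among the strains, against 47.3% of all genes. In DGY1741 4 were higher and 3 lower than the mean of the others (36.8% of all genes called), with a median log2 ratio of 0.19 against −0.014 for all genes. In DGY1726 1 was higher and 3 lower (23.3% called), in DGY1735 2 and 3 (21.4% called), and in DGY1743 1 was higher (21.4% called).

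XPT1, which salvages xanthine to XMP, the product of IMP dehydrogenase, was at 71.3 and 68.8 CPM in DGY1726, 80.0 and 77.7 in DGY1735, 131 and 122 in DGY1741, and 103 and 98.5 in DGY1743. The strains did not overlap and stood in the same order as for IMD2, a pattern whose share among all genes was not counted. XPT1 was higher in DGY1741 (log2 ratio 0.63, SE 0.08, adjusted p = 8.28e-05) and lower in DGY1726 (−0.52, SE 0.09, adjusted p = 0.00185). PNP1, purine nucleoside phosphorylase, rose 1.71-fold in DGY1741 (log2 ratio 0.77, SE 0.11, adjusted p = 0.000155) and was lower in DGY1735 (−0.62, SE 0.12, adjusted p = 0.00276) and DGY1726 (−0.44, SE 0.12, adjusted p = 0.0199). GUD1, guanine deaminase, was lower in DGY1726 (−0.42, SE 0.09, adjusted p = 0.00859) and higher in DGY1743 (0.45, SE 0.09, adjusted p = 0.00430). XPT1, PNP1 and GUD1 were each called lower in DGY1726 and DGY1735 and higher in DGY1741.

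AMD1, AMP deaminase, which returns AMP to IMP, went the other way. It was at 442 and 395 CPM in DGY1726, 427 and 406 in DGY1735, 272 and 236 in DGY1741, and 345 and 319 in DGY1743. It was lower in DGY1741 (log2 ratio −0.61, SE 0.10, adjusted p = 0.000449), whereas DGY1726 (0.35, SE 0.09, adjusted p = 0.0188) and DGY1735 (0.35, SE 0.09, adjusted p = 0.0203) had more. YNK1, nucleoside diphosphate kinase, was lower in DGY1741 (−0.50, SE 0.11, adjusted p = 0.00303) and higher in DGY1735 (0.33, SE 0.10, adjusted p = 0.0352).

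Of the 9 genes of the pathway to IMP, 2 differed among the strains, ADE8 and ADE5,7, against 47.3% of all genes. The count was 1 without DGY1726 replicate 1 or either DGY1741 library and 5 without DGY1735 replicate 2. ADE8, the first transformylase, was lower in DGY1741 (log2 ratio −0.65, SE 0.11, adjusted p = 0.000735), and DGY1743 had more of it (0.58, SE 0.11, adjusted p = 0.00232). ADE5,7, which encodes 2 activities in 1 protein, was higher in DGY1726 (0.44, SE 0.12, adjusted p = 0.0205) and lower in DGY1741 (−0.46, SE 0.13, adjusted p = 0.0130). The other 7 genes, ADE4, ADE6, ADE2, ADE1, ADE13, ADE16 and ADE17, did not pass among the strains. The motif TGACTC, bound by the purine regulator Bas1 and by Gcn4, was absent on both strands in the 250 bases before the start codon of all 5 members and present in 6.44% of 6599 such windows.

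**Figure D5:**
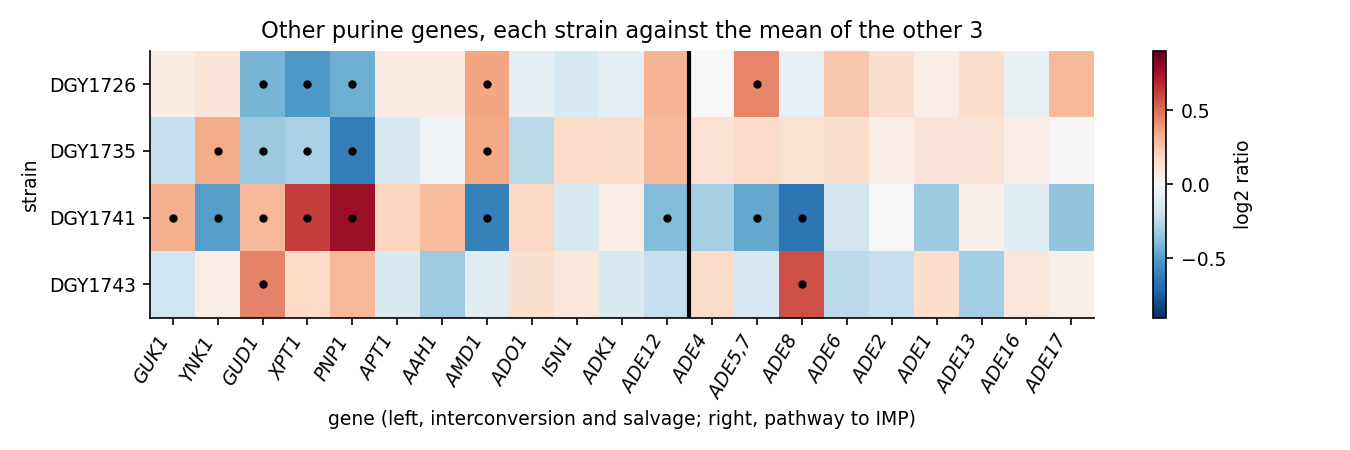
Colour map of the log2 ratio of each strain to the mean of the other 3 for 12 interconversion and salvage genes (left of the line) and 9 genes of the pathway to IMP (right), with a dot where the adjusted p was under 0.05. DGY1741 holds 7 dots on the left and 2 on the right, with PNP1 (0.77) and XPT1 (0.63) highest and ADE8 (−0.65) and AMD1 (−0.61) lowest.

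Among 8 factors of early termination and elongation known to act on IMD2 transcription, 2 differed among the strains, NAB3 and SSU72, against 47.3% of all genes. The count was 0 without DGY1726 replicate 2 or DGY1741 replicate 1, 1 without DGY1741 replicate 2, and 5 with the replicate number as a block. NAB3, an RNA-binding termination factor, was at 151 and 176 CPM in DGY1726 and between 109 and 133 in the other 6 libraries, and was higher in DGY1726 (log2 ratio 0.42, SE 0.10, adjusted p = 0.0124, 23.3% of all genes called). RPB9, an RNA polymerase II subunit, was higher in DGY1741 (0.36, SE 0.11, adjusted p = 0.0279, 36.8% called). SUB1, a transcription coactivator, was higher in DGY1743 (0.34, SE 0.11, adjusted p = 0.0427, 21.4% called). Neither RPB9 (adjusted p = 0.0569) nor SUB1 (0.0897) passed the test among the strains. SSU72 passed against the mean of the others in no strain, with log2 ratios between −0.29 (DGY1735) and 0.31 (DGY1743, adjusted p = 0.0508).

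The genes whose log2 CPM followed the members most closely across the 8 libraries are given as a description, since libraries of a strain are not independent. For IMD2 they were YAR075W (r = 0.98), the maltose transporter gene MAL11 (r = 0.98), the capping enzyme gene CEG1 (r = 0.97), the splicing protein gene SMB1 (r = 0.97) and the histone methylation complex gene SDC1 (r = 0.97). MAL11 rose from a mean of 26.4 CPM in DGY1726 to 60.8 in DGY1741, while CEG1 moved only from 82.7 to 104 in the same strains. For IMD3 they were the ribosome assembly genes KRI1 and RRP12 and the pseudouridine synthase gene PUS1 (r = 0.96 each), and for IMD4 the folate enzyme gene MIS1, the ribosome assembly gene NAN1 and the RNA polymerase I gene RPA135 (r = 0.98 each). GUA1 was followed by the ribosome assembly genes NOP8, UTP25 and HAS1 (r = 0.99 each). HPT1 was followed by the seryl-tRNA synthetase gene SES1 (r = 0.99), the ribosome assembly gene RRP7 (r = 0.98) and CDC33 (r = 0.96), which encodes the cap-binding protein. Among the members, IMD4 and GUA1 correlated at r = 0.95 and IMD3 and IMD4 at r = 0.93, whereas IMD2 correlated with IMD3 at r = −0.44, with IMD4 at −0.52 and with GUA1 at −0.59.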

How the data were processed

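RNA was sequenced from 2 chemostat cultures of each of 4 strains, grouped by the strain in the sample titles. The labels describe polyA RNA, the study's methods no poly-A selection. The authors trimmed reads with cutadapt, aligned them with STAR to R64 and deposited raw counts per annotated feature from strand-specific bedtools coverage, in which a read counts in every feature it overlaps. Gene rows were used, and coding-sequence rows for levels per kilobase. Chromosome lengths in the files equalled those of the R64 reference for 17 of 17 sequences. Counts were fitted with edgeR 4.0.16 in R 4.3.3 (TMM, a minimum mean of 100 counts, quasi-likelihood F-tests, Benjamini-Hochberg adjustment at 0.05), with all 8 libraries or, for pairs, with the 4 libraries compared. Scripts were tested on simulated counts. Alternatives were DESeq2 1.42.0, other size factors, filters and rows, a replicate block and each library left out. Named genes were the members, the IMD1 rows, the right-end genes that passed the minimum, up to 3 called genes per list and strain, and the genes of closest pattern. The 11 right-end rows below the minimum were described only under other filters. The members and lists were chosen with earlier results of these data known. Genome stretches were compared with exact 50-base matches, and identities were from global alignment with Biopython 1.88.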

Additional observations from a re-analysis of the deposited data

Results flagged for a closer look

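The non-coding row snR54, a small nucleolar RNA inside the intron of IMD4 that no comparison used, held reads in all libraries, with a lowest count of 30. It held 74 and 73 reads in DGY1726, 77 and 55 in DGY1735, 30 and 41 in DGY1741, and 39 and 42 in DGY1743. The IMD4 gene row exceeded its coding-sequence rows by 329 and 321, 332 and 256, 152 and 190, and 124 and 190 reads in the same order.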

How the results depend on the processing

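IMD2 among DGY1735, DGY1741 and DGY1743, GUA1 among the strains and the IMD4 to IMD3 ratio kept their side of the threshold under all alternatives tried (15, 15 and 9 each). As single libraries were left out, adjusted p among the strains ran from 0.00309 to 0.273 for IMD3, from 1.91e-05 to 0.109 for IMD4, from 0.000213 to 0.0341 for GUA1 and from 0.000335 to 0.0883 for HPT1, and for IMD2 among 3 strains from 5.24e-07 to 0.00423. By DESeq2, IMD4 lost its call (adjusted p = 0.142). Pairs were tested over the 5527 genes of the fit to all 8 libraries, a choice made after a first fit filtered on the 4 libraries of each pair had been seen; that filter changed no call or direction of the members and IMD1 rows. The exact p of the IMD4 to IMD3 ratio ran from 0.305 to 0.724 without 1 library and was 0.571 on coding-sequence rows. Deviations of same-numbered cultures correlated at between −0.25 and 0.40 over the 6 pairs of strains. In the pairs with DGY1726 the correlations were 0.26 (DGY1735), 0.40 (DGY1741) and 0.22 (DGY1743). The main fits used no pairing by replicate number, and whether same-numbered cultures belong together was not settled. With the replicate block, IMD3 was called (adjusted p = 0.0332), 5 termination and elongation factors were called in place of 2, and 2816 genes in place of 2616 differed among the strains.

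The count of genes beyond FLO5 lower in DGY1726 was 2, against 5 with no low-count filter, 5 with filterByExpr and 1 at an adjusted p under 0.01, and from 1 (without DGY1726 replicate 2) to 3 without 1 library. Genes called among the strains ran, without 1 library, from 4 to 8 for salvage, from 1 to 5 for the pathway to IMP and from 0 to 3 for the factors. At an adjusted p under 0.01 they were 1 for the pathway to IMP and 0 for the factors. IMD2 in DGY1726 against the others stayed between −2.62 and −2.14, but in DGY1735 it moved from −0.37 to −0.76 without DGY1735 replicate 1 and to −0.044 without replicate 2. Differences that turned sign in log2 ratio as single libraries were left out ran as follows. Against the mean of the others, IMD3 in DGY1726 ran from −0.013 to 0.63, IMD3 in DGY1735 from −0.065 to 0.65, IMD4 from −0.10 to 1.05 in DGY1735, HPT1 from −0.25 to 0.33 in DGY1735, and the IMD1 rows YAR073W and YAR075W from −0.63 to 0.13 and from −0.60 to 0.13 in DGY1735. For DGY1726 against DGY1735, IMD3 ran from −0.34 to 0.40, IMD4 from −0.52 to 0.63, GUA1 from −0.33 to 0.16 and HPT1 from −0.49 to 0.075. IMD3 in DGY1741 against DGY1743 ran from −0.011 to 0.36 and HPT1 in DGY1726 against DGY1743 from −0.015 to 0.33. DGY1726 against DGY1735 also turned in IMD3 by DESeq2 (−0.00059) and in IMD4 with the replicate block (0.014). The cause was not tested.

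With 2 cultures per strain, the wide gap between the cultures of DGY1735 and of DGY1726 limits what can be said of IMD3, IMD4, GUA1 and HPT1. The gap in DGY1735 also limits IMD2, which was at 149 and 90.3 CPM there. Shared stretches further limit IMD2 and the IMD1 rows, since reads were 50 bases long.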

Other observations

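Of the 11 rows beyond FLO5 with a mean under 100 counts, 3 were called lower in DGY1726 when low rows were kept, YHR214W (log2 ratio −1.85, SE 0.30, adjusted p = 0.000818), YHR214W-A (−1.29, SE 0.39, adjusted p = 0.0319) and YHR212C (−1.01, SE 0.26, adjusted p = 0.0153), by edgeR. YHR214W held 18 and 21 reads in DGY1726 and between 49 and 106 elsewhere. It shared 91.1% of its 50-base stretches with YAR066W, YHR214W-A shared 88.6% with YAR068W, and YHR212C shared 100% with YAR060C.

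The log2 ratio of GUA1 to HPT1 counts separated DGY1741 from the other strains, with 0.13 and 0.095 in DGY1726, −0.049 and 0.024 in DGY1735, −0.91 and −1.01 in DGY1741, and −0.29 and −0.48 in DGY1743. This ratio was computed after the levels were seen and was not tested.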
